A study of Mus musculus with 6 samples.

Results

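The growth plate chondrocyte genes described here are Col2a1, Col9a3, Hapln1 and Fgfr3. They were found as every probe whose only gene symbol in the platform annotation is one of these 4 names. That gave 5 probes of 21446 in the deposited table, 1 each for Col2a1, Col9a3 and Hapln1 and 2 for Fgfr3 (probes 1600 and 6510, called rows in the plots), and all 5 had a value on all 6 arrays. The material was bone of 4-week-old C57BL/6J-Ghrhr<lit> (lit/lit) mice, which lack working receptors for growth hormone-releasing hormone and so make little growth hormone (GH). One group received GH subcutaneously at 4 mg per kg and was sampled 6 or 24 hours later, and its controls, also lit/lit, received phosphate-buffered saline (PBS). RNA of 2 animals was pooled per sample, and the bone sampled is not named. Each array set a GH pool in Cy5 against a PBS pool in Cy3, with replicates 1 to 3 at 6 hours and replicates 4 to 6 at 24 hours. Values are log2 ratios of GH over PBS, so 1 is a doubling. The labels put GH in the first channel, which makes this direction likely, but the table does not state it. With the ratio turned, every sign, rank and count of higher or lower would turn too. No array had its dyes swapped, so an effect of dye on a single probe would add to its ratio at each time.

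Long bones grow at the growth plate, a layer of cartilage in which chondrocytes divide in columns, enlarge and are replaced by bone. GH drives this growth directly and through IGF-1. Type II collagen, the product of Col2a1, forms the fibrils of cartilage, and type IX collagen, to which Col9a3 contributes a chain, coats those fibrils and links them to other matrix molecules. Hapln1 encodes link protein, which fastens aggrecan to hyaluronan. Fgfr3 encodes a receptor for fibroblast growth factors that slows chondrocyte division, and activating mutations in it cause achondroplasia.

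Over both times, the Col9a3 probe was higher in GH bone than in PBS bone and both Fgfr3 probes were slightly higher, while the Col2a1 and Hapln1 probes were lower. Each of the 5 probes lay on 1 side of 0 on 6 of 6 arrays. Among the 17414 probes with a value on every array, 17.7% lay above 0 on all 6 and 15.7% below 0 on all 6. The genes were chosen with earlier results of these data known, so these shares do not test them as a set. The probes named for the collagen genes Col2a1 and Col9a3 had ratios of opposite sign.

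A caution on names comes first. Over 2902 pairs of complete probes that carry the same gene symbol (1809 genes), the mean log2 ratios over both times had the same sign in 50.9% of pairs. Pairs with unrelated signs would give 50.4%, so the shared name carried no visible agreement, and some probes may be paired with the wrong gene in the annotation. The median absolute difference within pairs was 0.45. A ratio below is thus that of the probe carrying a gene's name, and does not by itself establish a change in that gene's transcript. Col2a1, Col9a3 and Hapln1 rested on 1 probe each. The arrays also differed. The SD of all log2 ratios ran from 0.466 on replicate 1 to 0.913 on replicate 6, and across probes, which are no independent replicates, the r of replicate 1 with each of the other arrays was 0.223 to 0.359, against 0.556 to 0.817 for the remaining 10 pairs.

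The DNA just upstream of the start was in the RefSeq promoter table (GRCm38.p6) for 2 of the 4 genes, Fgfr3, whose probes were higher with GH, and Hapln1, whose probe was lower. A link between the composition of upstream DNA and the direction of the ratios was not tested. The sequences of these 2 genes are shown because only they, of the 4, were in that table. Both are given 5′ to 3′ on the plus strand, 250 bases ending at the base before an annotated start. The Fgfr3 window, before the first of 2 starts, lies at chr5:33721474-33721723 and that of Hapln1 at chr13:89540386-89540635. Capitals mark matches to the GC box letters GGGCGG on either strand.
Fgfr3: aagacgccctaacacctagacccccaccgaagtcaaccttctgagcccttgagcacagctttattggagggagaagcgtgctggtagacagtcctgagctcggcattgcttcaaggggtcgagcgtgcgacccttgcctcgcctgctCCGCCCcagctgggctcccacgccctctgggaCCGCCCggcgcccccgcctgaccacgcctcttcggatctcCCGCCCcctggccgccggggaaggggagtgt
Hapln1: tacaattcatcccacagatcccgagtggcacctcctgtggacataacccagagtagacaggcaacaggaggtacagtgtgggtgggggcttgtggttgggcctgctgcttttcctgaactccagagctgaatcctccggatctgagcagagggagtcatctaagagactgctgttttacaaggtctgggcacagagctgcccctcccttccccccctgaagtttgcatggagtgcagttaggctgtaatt
The Fgfr3 window held 3 GC boxes, and its content of G and C was 66.8%, above that of 85.8% of all windows of this length. The Hapln1 window held 0, with 54.4% G and C against a median of 52.4% over all 32851 windows, 32.7% of which held a GC box. Neither window held AACAAT, the core letters read by SOX factors (9.42% of windows), the STAT5 letters TTCNNNGAA (7.02%) or TATAAA (12.4%), each searched on both strands. A second Fgfr3 start in the table, with its window at chr5:33722056-33722305, had 2 GC boxes and 72.8% G and C (above 94.0% of windows), and is not printed. These are descriptions of letters in a window, and nothing about a factor's binding was measured.

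**Figure D1:**
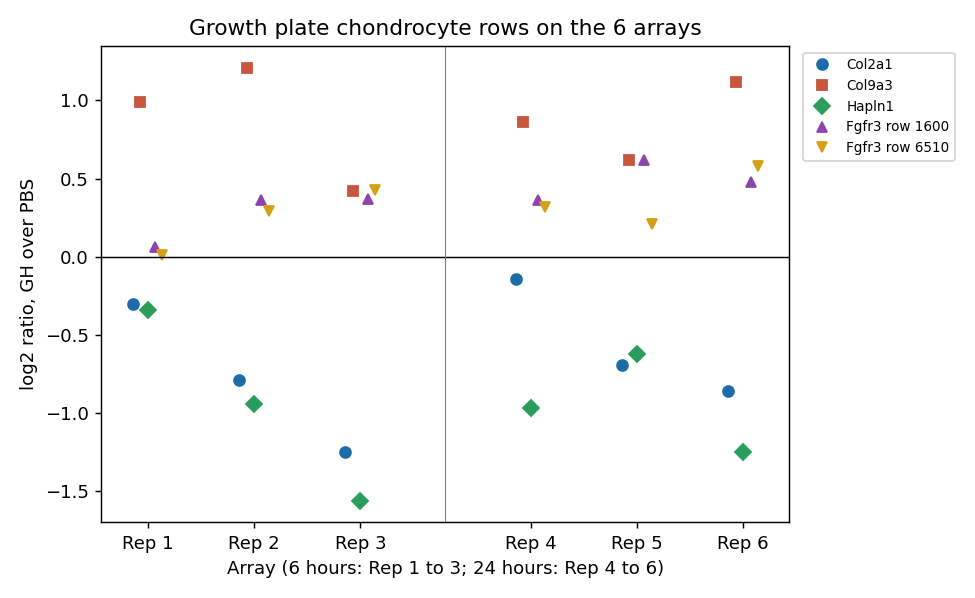
Log2 ratio of GH over PBS (vertical axis) of each probe on each of the 6 arrays (horizontal axis), with the 6-hour arrays left and the 24-hour arrays right of the vertical line; each symbol is 1 probe on 1 array. Col9a3 lies between 0.42 and 1.21 and both Fgfr3 probes between 0.01 and 0.62, while Col2a1 and Hapln1 lie between -1.56 and -0.14.

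Among the fibril collagens, Col2a1 (probe 6333, Entrez gene 12824) had log2 ratios of -0.30, -0.79 and -1.25 on replicates 1 to 3 and of -0.14, -0.69 and -0.86 on replicates 4 to 6. Every array lay below 0, replicate 3 was the lowest and replicate 4 the nearest to 0, and the values at 6 and 24 hours overlapped. Its mean was -0.78 ± 0.22 (SE, n = 3) at 6 hours and -0.56 ± 0.22 (n = 3) at 24 hours, and neither passed in limma (adjusted p = 0.0964 and 0.108). Over both times it fell, 1.59-fold (-0.67 ± 0.16, n = 6, adjusted p = 0.0205 in limma, lower on 6 of 6 arrays). The call was lost without replicate 2 (-0.67, adjusted p = 0.0689), replicate 3 (-0.55, 0.0671) or replicate 6 (-0.60, 0.0637), and once the prefix of the scan file entered as a covariate (-0.74, 0.112), range 0.00663 to 0.112 across the alternatives. On replicate 4 the probe stood at percentile 40.3 of all ratios of that array, and on the other arrays between 3.67 and 19.2.

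Col9a3 (probe 13129, Entrez gene 12841), whose product is one of the chains of type IX collagen, went the other way. Its log2 ratios were 0.99, 1.21 and 0.42 at 6 hours and 0.86, 0.62 and 1.12 at 24 hours. Replicate 3 was the lowest and replicate 2 the highest, and the times overlapped. The means were 0.87 ± 0.18 (SE, n = 3) at 6 hours, 1.83-fold, which did not pass (limma adjusted p = 0.0559), and 0.87 ± 0.18 (n = 3) at 24 hours, 1.82-fold, which did (adjusted p = 0.0261). Over both times Col9a3 rose 1.83-fold (0.87 ± 0.13, n = 6, 95% interval of the fold change 1.47 to 2.27, adjusted p = 0.0066). It stood between percentile 76.2 (replicate 3) and 97.6 (replicate 1) of its arrays. The 24-hour call was lost without replicate 4 (0.87, adjusted p = 0.0943) or 6 (0.74, 0.128), range 0.0255 to 0.458 across the alternatives. The call over both times held without each replicate in turn (0.79 to 0.98) and was lost only once the prefix of the scan file entered as a covariate (0.75, adjusted p = 0.0664, range 0.00273 to 0.0664 across the alternatives).

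Hapln1 (probe 5758, Entrez gene 12950) had the lowest mean of the 5 probes. Its log2 ratios were -0.34, -0.94 and -1.56 at 6 hours and -0.97, -0.62 and -1.25 at 24 hours. Replicate 1 was the nearest to 0 and replicate 3 the lowest, so the 24-hour arrays lay inside the range of the 6-hour arrays. The means were -0.95 ± 0.24 (SE, n = 3) at both 6 and 24 hours, of which the second passed in limma (adjusted p = 0.0811 and 0.0403). Over both times the Hapln1 probe fell 1.93-fold (-0.95 ± 0.17, n = 6, adjusted p = 0.0108). The 24-hour call was lost without replicate 2 (-0.95, adjusted p = 0.0693), 4 (-0.94, 0.132), 5 (-1.11, 0.0555) or 6 (-0.80, 0.180), range 0.0227 to 0.594 across the alternatives, and the 6-hour value passed without replicate 1 (-1.25, 0.0387, range 0.00604 to 0.352 across the alternatives). The call over both times held without each replicate in turn (-1.10 to -0.79) and was lost only once the prefix of the scan file entered as a covariate (-0.78, adjusted p = 0.105, range 0.00277 to 0.105 across the alternatives).

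The receptor gene Fgfr3 (Entrez gene 14184) was read by 2 probes. Probe 1600 had log2 ratios of 0.06, 0.36 and 0.37 at 6 hours and 0.36, 0.62 and 0.48 at 24 hours. Probe 6510 had 0.01, 0.29 and 0.43 at 6 hours and 0.32, 0.21 and 0.58 at 24 hours. All 12 values lay above 0, both probes were nearest to 0 on replicate 1, and the times overlapped for each. At 6 hours neither passed (0.26 ± 0.12 and 0.24 ± 0.14, SE, n = 3, limma adjusted p = 0.238 and 0.297). At 24 hours probe 1600 rose (0.48 ± 0.12, 1.40-fold, adjusted p = 0.0407) and probe 6510 had 0.37 ± 0.14 (1.29-fold, 0.0949). Over both times both rose, by 1.29-fold (0.37 ± 0.09, n = 6, adjusted p = 0.0218) and 1.24-fold (0.31 ± 0.10, adjusted p = 0.0491).

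The mean ratios of the Fgfr3 probes differed by 0.06 on the log2 scale, and 8.27% of the pairs of probes for one gene differed by less. Those pairs were not matched for the size of their ratios, so this share does not show that both probes read Fgfr3. On single arrays the Fgfr3 probes differed by 0.03 to 0.41, most on replicate 5 (exact sign-flip permutation test of the difference, two-sided, p = 0.5312). Their r over the 6 arrays was 0.54. The call of probe 1600 at 24 hours was lost without replicate 2 (0.48, adjusted p = 0.0723), 3 (0.48, 0.0643), 4 (0.55, 0.0984), 5 (0.42, 0.123) or 6 (0.49, 0.148), range 0.032 to 0.29 across the alternatives. Its call over both times was lost without replicate 2 (0.35, 0.0847), 3 (0.35, 0.0770), 5 (0.34, 0.0555) or 6 (0.37, 0.0585), range 0.00586 to 0.101 across the alternatives. That of probe 6510 was lost without replicate 2 (0.30, 0.142), 3 (0.26, 0.147), 4 (0.32, 0.101), 5 (0.35, 0.0634) or 6 (0.26, 0.132), range 0.0155 to 0.36 across the alternatives. The Fgfr3 rises are thus small and near the threshold.

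Counted over the 5 probes, 0 passed in limma at 6 hours (3 at an unadjusted p under 0.05), against 3.38% of the 19326 probes tested (2.75% higher and 0.636% lower). At 24 hours 3 of 5 passed, 2 higher and 1 lower, against 21.3% of all probes (12.4% higher and 8.87% lower). Over both times 5 of 5 passed, 3 higher and 2 lower, against 35.5% (19.2% higher and 16.3% lower). With the ratio turned this would read 2 higher and 3 lower, against 16.3% and 19.2%. The genes were chosen with earlier results of these data known, and 2 of the 5 probes are of Fgfr3. These shares are thus a background only and do not test the genes as a set. For each probe the exact sign-flip permutation test over the 6 arrays gave p = 0.03125 (two-sided), the smallest that 6 arrays allow. It takes that value wherever all 6 ratios share a sign. The counts at 6 and 24 hours share 1 estimate of spread, and over all probes they moved widely when 1 array was left out, from 0 to 1727 at 6 hours and from 0 to 4961 at 24 hours.

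**Figure D2:**
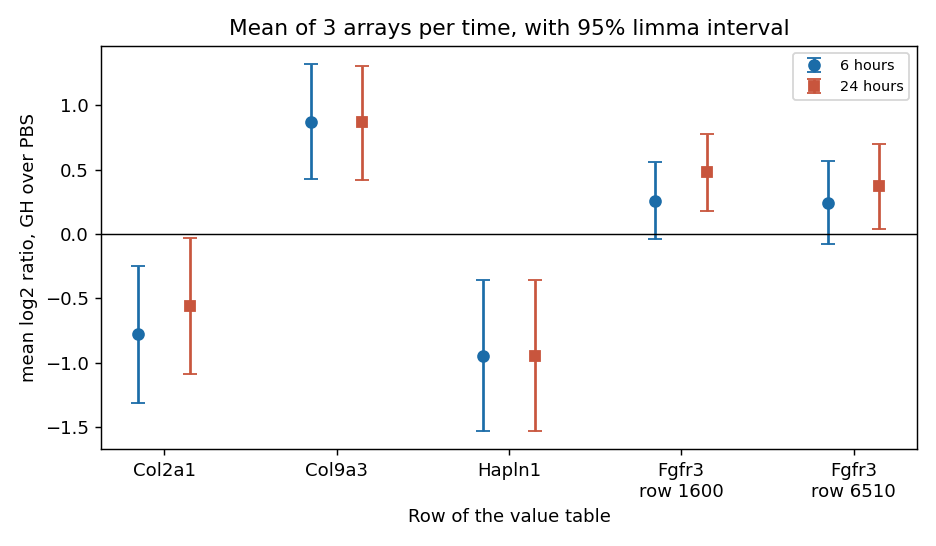
Mean log2 ratio of GH over PBS (vertical axis) of each probe (horizontal axis) at 6 hours (circles) and 24 hours (squares), 3 arrays each; bars are 95% intervals from limma. For every probe the intervals of the 2 times overlap; Col9a3 has 0.87 at both times and Hapln1 -0.95 at both.

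The comparison of the times asked whether the response of these genes at 24 hours differed from that at 6 hours. Col9a3 and Hapln1 had nearly equal means at both times, with a difference of 24 minus 6 hours of -0.0041 ± 0.26 (95% interval -0.63 to 0.62) and -0.0015 ± 0.34 (-0.83 to 0.82). Col2a1 lay nearer to 0 at 24 hours by 0.22 ± 0.31 (-0.53 to 0.97). The Fgfr3 probes were higher at 24 hours by 0.22 ± 0.18 (-0.20 to 0.65) and 0.13 ± 0.19 (-0.34 to 0.59). In limma 0 of 5 passed (adjusted p = 0.98 to 1.0, and 0 at an unadjusted p under 0.05), beside 0% of all probes (585 at an unadjusted p under 0.05). The exact permutation test of 3 against 3 arrays gave p = 0.3 to 1.0 and cannot go below 0.1. Given the width of the intervals, equal responses are not shown for any of the 5 probes. For Col2a1 and the Fgfr3 probes the intervals reach past the size of the ratios over both times. Leaving out 1 array moved the difference of Col2a1 from -0.02 (without replicate 3) to 0.46 (without replicate 1), of Col9a3 from -0.23 to 0.16 and of Hapln1 from -0.31 to 0.30. It moved that of Fgfr3 probe 1600 from 0.12 to 0.29 and of probe 6510 from 0.01 to 0.22.

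Replicate 5 was the only 24-hour array that shared the scan file prefix of the 6-hour arrays. On it Col2a1 had -0.69, Col9a3 0.62, Hapln1 -0.62 and the Fgfr3 probes 0.62 and 0.21, against means of -0.50, 0.99, -1.11, 0.42 and 0.45 on replicates 4 and 6. Each probe had the same sign in both sets, which follows from its lying on 1 side of 0 on 6 of 6 arrays. The prefix is a label of the output file, with no stated meaning.

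Because the spread of ratios differed between arrays, each probe was also ranked among all ratios of its array. Hapln1 lay between percentile 1.44 (replicate 3) and 16.7 (replicate 1). The Fgfr3 probes lay between 51.6 and 87.6, both close to the middle on replicate 1 (56.1 and 51.6). Col9a3 on replicate 1 stood at its highest rank, although its log2 ratio there was below that on replicates 2 and 6. Replicate 1, with the smallest spread, thus kept Col2a1 and Hapln1 in the lower and Col9a3 in the upper part of its ratios, while Fgfr3 stood near its middle.

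**Figure D3:**
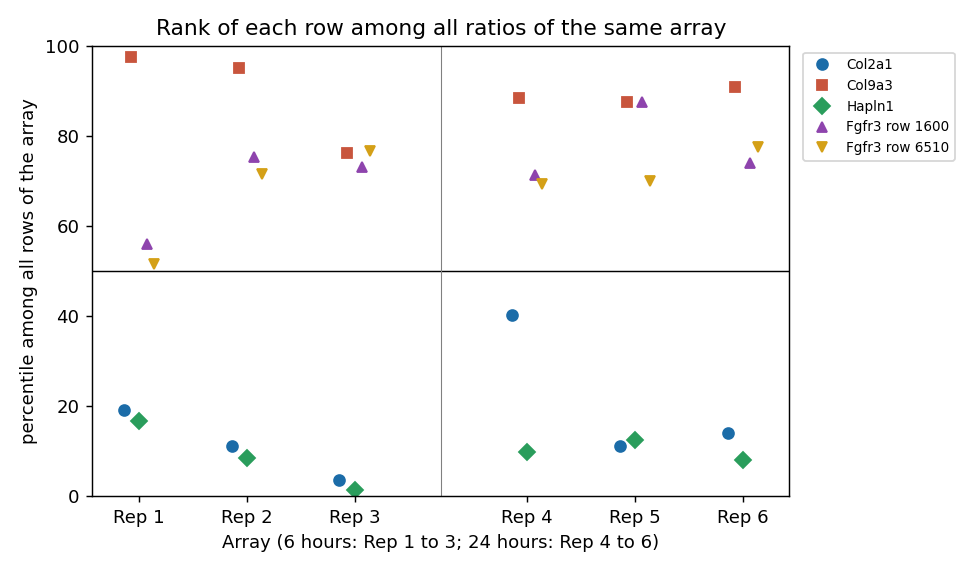
Percentile of each probe's log2 ratio among all ratios of the same array (vertical axis) on the 6 arrays (horizontal axis); each symbol is 1 probe. Col9a3 lies between 76.2 and 97.6 and Hapln1 between 1.44 and 16.7, while Col2a1 reaches 40.3 on replicate 4.

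The order of the mean ratios was the same at both times: Col9a3, Fgfr3 probe 1600, Fgfr3 probe 6510, Col2a1 and Hapln1. All 10 pairs were compared within arrays, which removes any centring of the array. Col2a1 lay below Col9a3 on 6 of 6 arrays, by 0.99 to 1.99 (mean 1.54 lower, SD 0.41; written as Col2a1 minus Col9a3, -1.54), with an exact two-sided sign-flip p of 0.03125 (0.0521 after Benjamini-Hochberg adjustment over the 10 pairs). Col9a3 lay above Hapln1 by 1.24 to 2.38 on 6 of 6 arrays (mean 1.82, SD 0.45, exact p = 0.03125, adjusted 0.0521). The same exact p held for Col2a1 and Hapln1 against each Fgfr3 probe. It is the smallest that 6 arrays allow, and none of the 10 pairs passed after adjustment. Col9a3 and the Fgfr3 probes lay above 0 and Col2a1 and Hapln1 below 0 on every array. The p of each pair across 0 was thus fixed by those signs and adds nothing to them.

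Of the neighbours in that order, only Fgfr3 probe 6510 and Col2a1 lay apart on 6 of 6 arrays (Col2a1 minus probe 6510, mean -0.98, SD 0.53). Col9a3 minus Fgfr3 probe 1600 averaged 0.50 (SD 0.39, exact permutation p = 0.0625, n = 6) and was 0 on replicate 5 to 2 decimals. Col2a1 minus Hapln1 averaged 0.28 (SD 0.32, exact permutation p = 0.09375, n = 6), with Col2a1 higher on 5 arrays and lower on 1. These are differences of ratios, not of expression levels, which 2-colour ratios do not give.

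Other cartilage matrix genes were scarce among the probes with a single symbol: 5 of 24 listed genes had one, the 3 matrix genes above and 2 others. Fmod, which encodes the collagen-binding proteoglycan fibromodulin, had 0.07, 0.38 and 0.51 at 6 hours and 1.68, 0.71 and 0.61 at 24 hours. It rose over both times (0.66 ± 0.16, limma adjusted p = 0.0235). Loxl4, a lysyl oxidase-like enzyme that cross-links collagen, rose as well (0.79 ± 0.17, adjusted p = 0.0156). Both calls were lost without replicate 2 or 3. Over both times 3 of these 5 probes rose and 2 fell, against 19.2% and 16.3% of all probes. As 3 of the 5 are the matrix genes above, the count mostly repeats them. The median of the 5 was the value of Fmod, 0.66 (-0.011 over all probes), and does not describe cartilage matrix genes as a whole. Acan, Comp, Matn1, the other chains of type IX collagen and those of type XI were not analysed here.

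In the FGF list, 15 of 26 genes were measured by 20 probes. At 24 hours 4 rose and 0 fell, and over both times 6 rose and 2 fell (median 0.09), of which Fgfr3 gave 1 and 2. Over all probes 21.3% passed at 24 hours and 35.5% over both, so 4 of 20 and 8 of 20 are near the background. Among the receptors, Fgfr1 probe 6383 rose over both times (0.52 ± 0.11, limma adjusted p = 0.0163) but probe 20757 had 0.20 ± 0.19 (0.436). The Fgfr2 probes had -0.45 and -0.07, Fgfr4 had 0.09 and the decoy-like receptor Fgfrl1 0.18, and none of these passed. Among the ligands, Fgf7 fell (-1.61 ± 0.40, n = 5, 0.0316), while Fgf9 (-0.24) and Fgf10 (0.10) did not pass. Of the feedback inhibitors of receptor signalling, Spry1 rose (0.60 ± 0.12, 0.0134) and Spry4 fell (-0.59 ± 0.15, 0.0282). Spred1 probe 22404 rose (0.79 ± 0.18, 0.0206) and its other probe had -0.07, and the phosphatase gene Dusp6 had 0.01. Snai1, a transcriptional repressor that acts downstream of Fgfr3 in cartilage, rose (0.53 ± 0.12, 0.0180), and the cell cycle inhibitor Cdkn1a had 0.31 (0.0804). The calls of Fgfr1 probe 6383, Spry1 and Spred1 probe 22404 over both times were lost without replicate 2 or 3. That of Snai1 was lost without replicate 2, 3, 4 or 6.

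**Figure D4:**
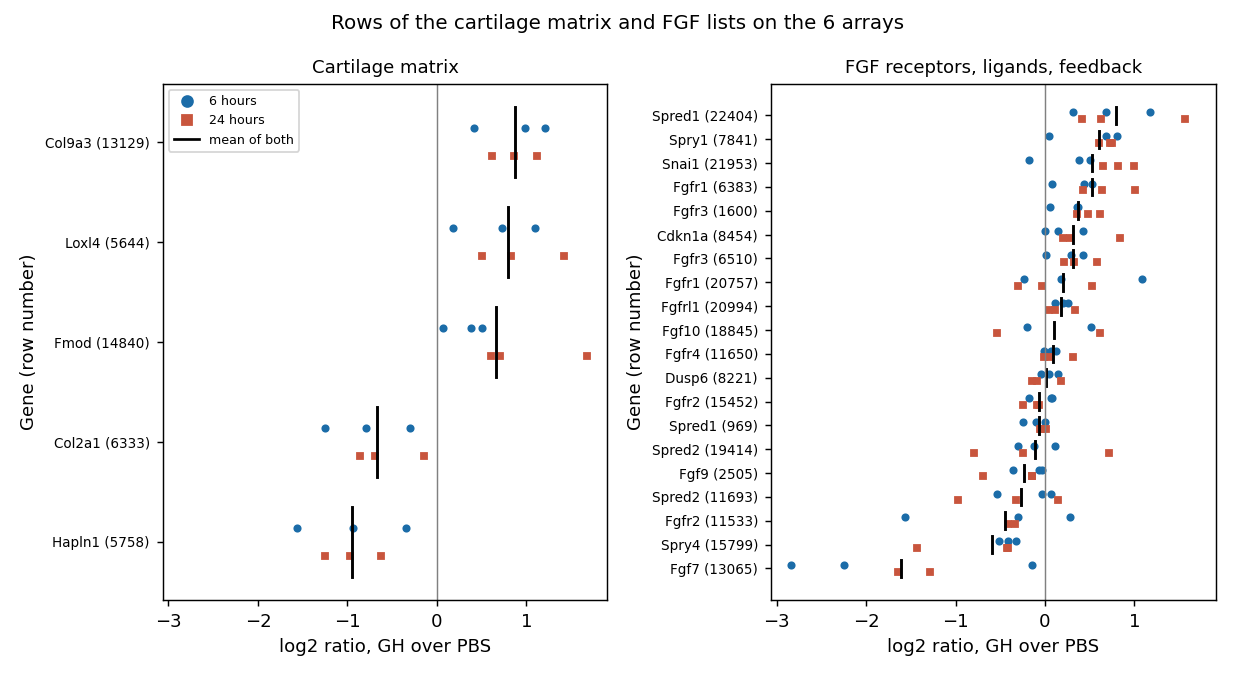
Log2 ratio of GH over PBS (horizontal axis) of each probe of the cartilage matrix list (left) and the FGF list (right), named by gene and probe number; circles are 6-hour arrays, squares 24-hour arrays, and the black bar is the mean of the 2 times. Col2a1 and Hapln1 are the lowest of the 5 matrix probes, and the Fgfr3 probes, at 0.37 and 0.31, lie in the upper part of the FGF list, whose lowest bar is Fgf7 at -1.61.

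Transcription factors of chondrocytes were measured by 12 probes of 6 among 15 genes. Over both times 4 rose and 2 fell (median 0.14), against 19.2% and 16.3% of all probes, the background for the counts over both times in the other lists too. Dlx6, a homeobox factor of the skeleton, rose on all 5 arrays with a value (1.13 ± 0.11, limma adjusted p = 0.0038) and the endoplasmic reticulum-bound factor gene Creb3l2 rose (0.32 ± 0.09, 0.0299). Runx3, a driver of chondrocyte enlargement, fell by 0.96 on probe 6364 (0.0200) and had 0.05 on its other probe. The 4 probes of Mef2c, which acts in the same step, had 0.32, 0.45, -0.61 and 0.01, of which the first 3 passed in opposite directions. The call of Creb3l2 over both times was lost without replicate 2, 3, 4 or 6. That of Runx3 probe 6364 was lost without replicate 2, and that of Mef2c probe 4668 without replicate 2, 3 or 4. Sox9, Sox5, Sox6 and Runx2 were not analysed here.

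Genes of the enlarging zone and of the hedgehog loop, which sets the pace of that zone, moved in both directions. Panx3, a channel of enlarging chondrocytes and osteoblasts, fell by 0.81 (limma adjusted p = 0.0209), and the vessel growth factor gene Vegfa rose (0.67 ± 0.14, 0.0158). The remaining 2 of 4 probes, Ibsp and Pth1r, had -0.26 and -0.08. Of 9 hedgehog and PTHrP probes 1 rose, the hedgehog-binding inhibitor gene Hhip (0.88 ± 0.22, n = 4, 0.0407), and 2 fell, Gli3 probe 2517 (-0.74 ± 0.15, 0.0140) and the receptor gene Ptch1 on probe 410 (-1.46 ± 0.34, 0.0204). The second probes of Gli3 and Ptch1 had 0.26 and 0.47. None of these 5 calls over both times held throughout when 1 array was left out. Panx3 was lost without replicate 2, 3 or 4, Vegfa without 2 or 3, and Gli3 probe 2517 without 3. Ptch1 probe 410 was lost without replicate 2, 3 or 6, and Hhip without 6.

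Among 6 probes listed for C-type natriuretic peptide signalling, which counters Fgfr3 in the growth plate, the kinase gene Map2k6 rose (1.62 ± 0.26, limma adjusted p = 0.00824). The receptor gene Npr2 and the clearance receptor gene Npr3 had 0.33 and -0.22 and did not pass. Of 9 probes for cartilage sulfation and glycosaminoglycan synthesis 3 rose and 1 fell, against 19.2% and 16.3% of all probes. Csgalnact1, which starts chondroitin chains, rose (0.99 ± 0.13, 0.00489), as did the xylosyltransferase gene Xylt2 (0.58 ± 0.12, 0.0141) and the heparan sulfate polymerase gene Ext1 (0.38 ± 0.09, 0.0227). Chst12, a chondroitin sulfotransferase gene, fell by 1.17 (0.00329). The calls of Map2k6, Csgalnact1 and Chst12 over both times held without each replicate in turn. That of Map2k6 was lost once the prefix of the scan file entered as a covariate. The call of Xylt2 over both times was lost without replicate 2, and that of Ext1 without replicate 2, 3, 4 or 6.

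Of 19 probes for collagen processing enzymes 6 rose and 0 fell over both times (median 0.10), against 19.2% and 16.3% of all probes. The 3 probes of Plod1, a lysyl hydroxylase of collagen, all rose (1.25 ± 0.14, 0.66 ± 0.13 and 0.84 ± 0.22, limma adjusted p = 0.00357, 0.0121 and 0.0307). Probe 5880 of Plod1 was the only list probe to pass at 6 hours (1.10 ± 0.20, adjusted p = 0.0448). That 6-hour call was lost without replicate 2, 3, 4, 5 or 6, and once the prefix of the scan file entered as a covariate. The collagen chaperone gene Serpinh1 (0.63 ± 0.12, 0.0120) and Pcolce, an enhancer of procollagen cleavage (0.72 ± 0.16, 0.0188), rose, as did Adamts3, a procollagen peptidase that acts on type II collagen (0.49 ± 0.13, 0.0314). The call of Pcolce over both times was lost without replicate 2, 3 or 4. Plod2, Plod3, P4hb, P4ha1 and Lox did not pass.

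Of the genes that bind hyaluronan, 5 of 12 were measured, by 10 probes. Hapln4, a link protein gene of the brain, rose (0.59 ± 0.13, limma adjusted p = 0.0157), opposite in sign to Hapln1. The probes of Vcan, a large proteoglycan that link protein also holds, disagreed: probe 13119 rose (0.72 ± 0.11, 0.0066), probe 8146 fell (-0.72 ± 0.20, 0.0357) and probe 7686 had 0.13. The hyaluronan receptor gene Cd44 fell on 1 of its 4 probes (-1.08 ± 0.22, n = 5, 0.0177). Its other probes had 0.67, 0.05 and -0.34 and did not pass. The call of Hapln4 over both times was lost without replicate 2 or 3, and that of Vcan probe 8146 without replicate 1, 2, 3 or 5. Of the 28 list calls over both times that the naming rule picked, 9 held without each replicate in turn that could be left out and 6 once the prefix of the scan file entered as a covariate. The calls of Fgf7, Spry4, Adamts3, Plod1 probe 18139 and Mef2c probes 19878 and 21620 fall outside that rule and were not run with an array left out.

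Markers of other cell types in bone moved in some lists and not in others. Over both times 19.2% of all probes were called higher and 16.3% lower. In pooled bone RNA, fewer cells of a type and less RNA per cell cannot be told apart. Skeletal muscle markers, 8 of 15 measured, averaged 0.12, 0.60 and 1.17 on replicates 1 to 3 and 0.91, 0.13 and 0.28 on replicates 4 to 6, and 3 of 8 rose over both times. Their highest mean was on replicate 3, where Col2a1 and Hapln1 were lowest. Their next was on replicate 4, where Col2a1 was nearest to 0 and Hapln1 had -0.97. Replicate 1, with the lowest muscle mean, had Col2a1 at -0.30 and Hapln1 at -0.34. Replicate 5, with a mean near it, had -0.69 and -0.62, replicate 2 had -0.79 and -0.94, and replicate 6 had -0.86 and -1.25. Neutrophil markers, 7 of 12 measured by 9 probes, averaged -0.89 to -0.05 at 6 hours and -1.57 to -0.68 at 24 hours, and 4 of 9 fell. Osteoblast markers, 4 of 12 measured by 5 probes, averaged -0.04 to 0.05 at 6 hours and -0.45 to -0.05 at 24 hours, with 0 of 5 past the threshold over both times in limma (0 also at an unadjusted p under 0.05). Of 6 probes for tendon and fibroblast genes 3 rose over both times (median 0.31). Of 5 osteoclast probes 1 rose and of 4 endothelial probes 1 fell, while 0 of 2 erythroid probes and 0 of 1 adipocyte probe passed. The part of these markers in the ratios of the chondrocyte genes was not tested. Ratios give no levels, so whether the bone held growth plate cartilage cannot be read from them.

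The probes most like each chondrocyte probe over the 6 arrays were sought by Pearson's r among 10401 complete probes with a single name, predicted genes and clones left out. They are a description only, picked as the highest of many values over 6 arrays. For Hapln1 they were Ythdf3 (r = 0.997, root mean square difference 0.26), Nadk2 (0.994, 0.92) and Dek (0.988, 0.39). For Col2a1 they were Ttc4 (0.985, 0.59), Ildr1 (0.975, 0.40) and Rbm10 (0.974, 0.81), and for Col9a3 they were Med19 (0.979, 0.38), Scoc (0.967, 0.92) and Ddb1 (0.963, 0.48). Fgfr3 probe 1600 was most like Nkrf (0.999, 1.22), Mcmdc2 (0.992, 0.08) and Gata6 (0.991, 0.64), and probe 6510 most like Atf7ip (0.998, 0.18), Slc35f2 (0.995, 0.21) and Tfeb (0.994, 0.14). The nearest genes of the 2 Fgfr3 probes were different ones.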

How the data were processed

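Total RNA was amplified from an oligo(dT) primer with a T7 promoter and labelled as cRNA, per the labels' protocols. The authors deposited log2 ratios, 1 per array and probe. How they were normalized and flagged, and with which software, is not stated per the labels, the arrays were left as deposited, and no intensities were used, so signal over background is unknown. Of 21446 probes, 11813 carried 1 symbol (0 changed after update to GRCm38.p6 names), 559 several and 9074 none. Probes with values on at least 2 arrays of each time (19326) were fitted singly with limma 3.58.1 in R 4.3.3, with 1 mean per time over all 6 arrays and Benjamini-Hochberg adjustment over all of them, at a threshold of 0.05, two-sided. Errors are moderated standard errors (prior of 2.46 degrees of freedom). The fit was tested on simulated ratios. Those were drawn with the same spread of a probe on every array, whereas the SD of all ratios differed between the real arrays. Pools were of separate animals by the design text, so precision is set by how few arrays there are. The alternatives were other normalizations, probes averaged per gene, other rules for missing values, variance settings, the scan file prefix and each replicate left out. Named list genes are, per list and comparison, up to 4 probes past the threshold with the smallest p, or 2 where none passed, plus others given as values to complete a family. Those, and the replicate counts, were chosen after the values were seen where they go beyond that rule. The members and lists were chosen with earlier results of these data known. One CNP entry, Osgep, is not known to belong to that pathway.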

Additional observations from a re-analysis of the deposited data

How the results depend on the processing

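Under the alternatives run, every one of the 5 probes kept its sign at 6 hours, at 24 hours and over both times (16, 16 and 15 alternatives). Each lay on 1 side of 0 on 6 of 6 arrays, so leaving out or weighting arrays could not turn that sign. The kept signs thus add little to that. The sign of the difference between the times changed for Col2a1, Col9a3, Hapln1 and Fgfr3 probe 6510, none of which passed. Calls did depend on the setting. At 6 hours, scaling the arrays to 1 median absolute deviation made Col9a3 (1.06) and Hapln1 (-0.99) pass, quantile normalization Col2a1 (-0.87), Col9a3 (1.00) and Hapln1 (-1.09), and array weights Col2a1 (-0.84), Col9a3 (1.03), Hapln1 (-1.02) and both Fgfr3 probes (0.33 and 0.30). At 24 hours, scaling ended the calls of Col9a3 (0.77) and Fgfr3 probe 1600 (0.47), quantile normalization those of Hapln1 (-0.84) and probe 1600 (0.46), and averaging per gene (0.43) or fitting 24 hours alone (0.48) that of probe 1600. Once the prefix of the scan file entered as a covariate, so that replicate 5 sets the 24-hour value, Col9a3 (0.62), Hapln1 (-0.62) and probe 1600 (0.62) missed the threshold at 24 hours and Col2a1 (-0.74), Col9a3 (0.75), Hapln1 (-0.78) and the Fgfr3 probes (0.44 and 0.23) over both times. Probe 6510 over both times was also lost with values allowed on 1 array of a time (0.31) or with robust empirical Bayes (0.31).

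Leaving out each replicate in turn, the 6-hour values ranged from -1.25 to -0.64 for Hapln1, from -1.02 to -0.54 for Col2a1 from 0.70 to 1.10 for Col9a3, from 0.21 to 0.36 for Fgfr3 probe 1600 and from 0.15 to 0.36 for probe 6510. At 24 hours they ranged from 0.74 to 0.99 for Col9a3, from -1.11 to -0.80 for Hapln1 from 0.42 to 0.55 for Fgfr3 probe 1600, from -0.78 to -0.41 for Col2a1 and from 0.27 to 0.45 for probe 6510. Over both times they ranged from -0.79 to -0.55 for Col2a1, from 0.34 to 0.42 for probe 1600 and from 0.26 to 0.37 for probe 6510. Over all probes the counts past the threshold were 654, 4116, 6868 and 0 at 6 hours, at 24 hours, over both and in the difference. Left-one-out counts were 0 to 1727, 0 to 4961 and 2445 to 7870. The 6-hour count was 2016 with scaling, 2232 with quantile normalization, 7660 with array weights and 0 with 6 hours fitted alone (4953 at an unadjusted p under 0.05 in limma). The 24-hour count was 2707 with that time alone and 31 with the prefix, which left 1621 over both. Averaged per gene, Mef2c and Vcan over both times had 0.04 each, opposite in sign to Mef2c probe 4668 and Vcan probe 8146. Of 791 further values of named list genes 589 kept their side of the threshold, 200 lost it and 2 turned. Of 1188 list counts 237 moved by over 1.5 times. No paired analysis was possible because the 6-hour and 24-hour arrays share no replicate number.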
